A study of Rattus norvegicus with 22 samples.

Results

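The 10 genes described here mark macrophages and were followed in the left kidney of 22 PKD/Mhm (Cy/+) rats. They are Csf1r, Adgre1, Itgam, Cd68, Aif1, C1qa, C1qb, C1qc, Mrc1 and Cd163. The genes were chosen by name and not by a rule on their measured values, but with earlier results of these data known. They are 10 of the 17334 genes listed. All 10 passed the filter on low counts, which left 12867 genes for testing. The question was whether their transcripts differed between kidneys of untreated rats and kidneys of rats that received human adipose-derived stromal cells (ASC) or a conditioned medium (CM), and how the genes varied together from rat to rat.

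All rats, controls included, were males of the PKD/Mhm (Cy/+) strain, which carries 1 mutant copy of Anks6 and develops polycystic kidneys, and all were 8 months old. The groups held 6 untreated control rats, 6 rats given i.p. ASC, 6 rats given i.v. ASC and 4 rats given CM, with injections once per month for 6 months. The cells were human and the host was a rat, and the mutation was present in every group, so no healthy kidney was available for comparison. The CM label states neither the cells that conditioned the medium nor the route, and the study's own descriptions of the route differ. Each rat was 1 library of whole-kidney RNA with 12195682 to 14734772 counts. Of these rats 1, i.v. ASC rat 3, stood apart in the genes described here. Some results are therefore also given without it, and the others include it.

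Macrophages are phagocytes that reside in every kidney and are joined by cells from blood monocytes when the tissue is damaged. In polycystic kidneys they gather around cysts, where they clear debris and release factors that act on the tubular epithelium. Their survival depends on the receptor Csf1r, their identity on transcription factors such as PU.1, and their surface carries receptors for debris, complement and pathogens.

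The start regions of the genes are shown for their letters only, and any part of them in how the genes varied over rats was not tested. PU.1, the product of Spi1, binds purine-rich sites around the core letters GAGGAA. RefSeq start regions on GRCr8 were given for 8 of the 10 genes, not for C1qc and Aif1. In the 250 bases before the start, GAGGAA was found on either strand in 6 of these 8 genes, compared with 24.8% of the 27457 genes with a start region and 23.9% of those tested. The first base of the match lay 27 bases before the start in Cd68, 39 and 151 in Itgam, 35 and 180 in Mrc1, 90 and 247 in C1qb, 95 and 229 in Csf1r and 207 in Adgre1, and these letters were not in the windows of C1qa and Cd163. A match is a description of letters, and binding was not measured. The 100 bases before the start are given for 4 of the 5 genes with a match in that stretch, 5′ to 3′ on the gene's strand, with the match in capitals. TTCCTC is the same core read on the opposite strand.
Cd68, chr10:54882442-54882541, minus strand: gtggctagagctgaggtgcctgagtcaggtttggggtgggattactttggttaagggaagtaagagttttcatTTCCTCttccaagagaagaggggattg
Itgam, chr1:192089492-192089591, plus strand: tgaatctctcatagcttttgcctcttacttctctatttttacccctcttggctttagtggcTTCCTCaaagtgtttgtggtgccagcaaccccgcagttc
Mrc1, chr17:82157625-82157724, plus strand: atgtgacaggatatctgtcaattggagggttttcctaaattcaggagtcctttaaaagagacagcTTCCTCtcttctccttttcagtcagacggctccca
C1qb, chr5:154407828-154407927, minus strand: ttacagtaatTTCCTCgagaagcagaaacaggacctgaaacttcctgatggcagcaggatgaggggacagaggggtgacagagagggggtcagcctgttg

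C1qa, Aif1, C1qc and C1qb were the most abundant transcripts of the group, and Cd163 was the least. On the TPM scale, which corrects for transcript length and so allows genes to be compared, C1qa had a median of 189 TPM over the 22 rats (76.0 to 334 TPM). Its mean TPM was above that of 93.7% of the tested genes. Aif1 had a median of 144 TPM, C1qc of 140 TPM and C1qb of 120 TPM, and these medians lay within the range of each other's rats. Cd68 followed at 67.1 TPM, Csf1r at 33.0 TPM, Adgre1 at 8.88 TPM, Mrc1 at 6.65 TPM and Itgam at 5.91 TPM. The last 3 overlapped widely, with ranges of 2.50 to 14.8, 2.27 to 10.2 and 1.48 to 10.3 TPM. Cd163 had a median of 0.81 TPM (0.179 to 1.41 TPM, 8 to 58 counts per rat). Its mean TPM was above that of 4.36% of the tested genes, so its values rest on few reads. All 10 genes had counts in every rat.

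**Figure D1:**
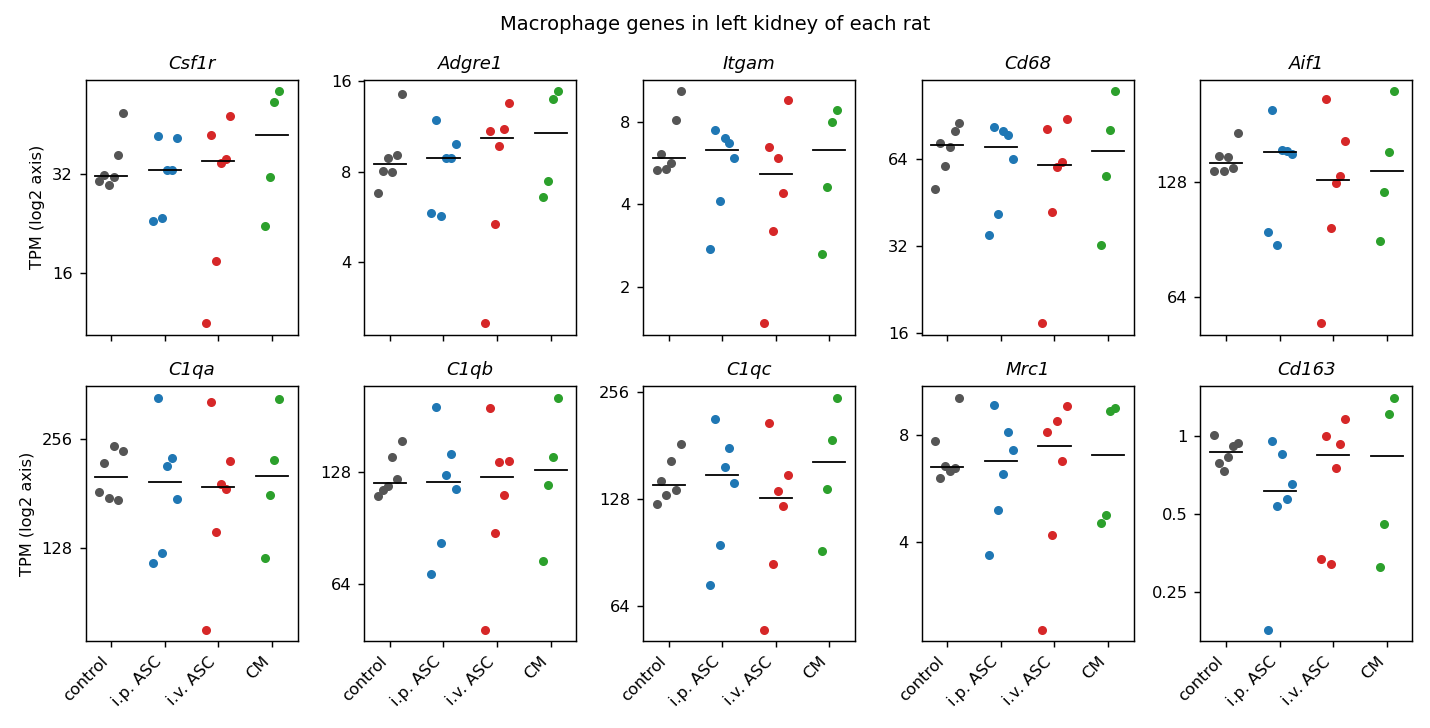
TPM on a log2 axis of each macrophage gene in each rat (points) by group, with the group median as a line. The groups overlap for every gene. Control rats span the least in every panel but that of Adgre1, where they span 2.13-fold and i.p. ASC rats 2.10-fold. The lowest point is i.v. ASC rat 3 in 9 of the 10 panels and i.p. ASC rat 5 in that of Cd163.

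No difference between a treated group and the control rats passed the test for any of the 10 genes. By the quasi-likelihood test of edgeR, with p-values adjusted over all genes after Benjamini and Hochberg and a threshold of 0.05, 0 of 10 passed after i.p. ASC, i.v. ASC or CM, against a background of 0% of all genes in each of these comparisons. Without adjustment, 0 of 10 had p below 0.05, where 3.89% of all genes did after i.p. ASC, 8.81% after i.v. ASC and 6.6% after CM. DESeq2 also called 0 of the 10 genes in each comparison. In whole tissue, fewer cells of a type and less RNA per cell cannot be told apart, so these levels count neither macrophages nor their activity.

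Csf1r is the receptor for CSF1 and IL34, on which macrophages depend. It was listed at 29.7 TPM in the lowest, 31.6 TPM in the median and 49.3 TPM in the highest control rat. The corresponding values were 23, 33.0 and 41.9 TPM after i.p. ASC and 11.2, 35.2 and 48.4 TPM after i.v. ASC, while the 4 CM rats had 22.3, 31.5, 53.2 and 57.5 TPM. The highest values were thus in 2 CM rats and the lowest in i.v. ASC rats 3 and 9 (11.2 and 17.4 TPM), and the groups overlapped. The log2 fold change on the count scale was 0.29 ± 0.29 (SE) after CM, 95% interval of the fold 0.806 to 1.84, with an adjusted p of 0.882 by edgeR. It was 0.00 ± 0.26 after i.p. ASC and -0.05 ± 0.26 after i.v. ASC.

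Adgre1 encodes F4/80, a surface receptor used to stain rodent macrophages. Control rats had 6.81 to 14.5 TPM with a median of 8.47 TPM. The i.p. ASC rats had 5.68 to 11.9 TPM with a median of 8.88 TPM, the i.v. ASC rats 2.50 to 13.5 TPM with a median of 10.3 TPM, and the CM rats 6.60, 7.43, 14 and 14.8 TPM. The CM rats fell into a lower and a higher pair, and control rat 24 stood as high as the higher pair. The log2 fold change was -0.01 ± 0.28, 0.03 ± 0.28 and 0.27 ± 0.32 (SE) in the order i.p. ASC, i.v. ASC and CM, with adjusted p-values of 0.993, 0.97 and 0.909 by edgeR.

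Itgam encodes CD11b, the integrin chain of complement receptor 3, which neutrophils and monocytes also carry. Its medians were 5.87 TPM in control rats (5.32 to 10.3), 6.30 TPM after i.p. ASC (2.76 to 7.45) and 5.15 TPM after i.v. ASC (1.48 to 9.58), and the CM rats had 2.64, 4.63, 7.96 and 8.83 TPM. Every control rat was above 5 TPM, whereas each treated group held rats below the lowest control. Itgam had the lowest log2 fold change of the 10 genes after i.v. ASC (-0.31 ± 0.32, SE) and CM (-0.13 ± 0.35), with adjusted p-values of 0.676 and 0.98 by edgeR and exact permutation p-values, two-sided and unadjusted, of 0.266 and 0.505. After i.p. ASC it was -0.17 ± 0.32.

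Cd68 encodes a glycoprotein of the macrophage lysosome. It ranged from 50.5 to 85.3 TPM in control rats (median 71.6), from 34.9 to 82.6 TPM after i.p. ASC (median 70.8) and from 17.3 to 88.0 TPM after i.v. ASC (median 61.4). The CM rats had 32.3, 55.9, 80.8 and 110 TPM. Rat 21 of the CM group was the highest of all rats, and rats below the lowest control were found in each treated group. The fold against control was 0.95 after i.p. ASC (95% interval 0.629 to 1.44), 0.908 after i.v. ASC (0.601 to 1.37) and 1.01 after CM (0.638 to 1.61).

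Aif1 encodes Iba1, an actin-binding protein of macrophages and microglia. Control rats were within 136 to 171 TPM, a narrower band than the 87.7 to 197 TPM after i.p. ASC and the 54.7 to 210 TPM after i.v. ASC. The CM rats had 89.5, 120, 153 and 220 TPM. The medians were 144, 152, 129 and 136 TPM in the order control, i.p. ASC, i.v. ASC and CM. Its fold changes had the smallest error of the 10 genes, with log2 values of 0.01 ± 0.23, -0.04 ± 0.23 and 0.02 ± 0.26 (SE) in the 3 treated groups.

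C1qa, C1qb and C1qc encode the chains of C1q, the recognition unit of the classical complement pathway, made largely by tissue macrophages. The genes are neighbours on chromosome 5 of GRCr8 in the order C1qb, C1qc, C1qa, with no other coding gene between them. C1qa had a median of 202 TPM in control rats (174 to 245), 195 TPM after i.p. ASC (116 to 334) and 189 TPM after i.v. ASC (76.0 to 325), and 120, 180, 225 and 331 TPM in the CM rats. Both the highest and the lowest rats were treated, and 1 rat of each treated group was above 300 TPM. The log2 fold changes of the 3 chains were 0.01 to 0.03 after i.p. ASC, -0.10 to 0.03 after i.v. ASC and 0.08 to 0.20 after CM, with SE of 0.25 to 0.30.

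The proportions of the C1q transcripts varied far less than their levels. The ratio of C1qa to C1qb in TPM was 1.62 ± 0.12 (SD, n = 22), within 1.41 and 1.93, while C1qb itself ranged from 48.3 to 202 TPM. The ratio of C1qa to C1qc was 1.41 ± 0.13 (SD, n = 22) and that of C1qb to C1qc 0.871 ± 0.070 (SD, n = 22). The last of these was 0.861 ± 0.040 in control rats, 0.849 ± 0.055 after i.p. ASC and 0.944 ± 0.066 after i.v. ASC (SD, n = 6 each), and 0.807 ± 0.048 after CM (SD, n = 4). These ratios are given as values and were not tested between groups.

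Mrc1, the mannose receptor, and Cd163, the scavenger receptor for haemoglobin bound to haptoglobin, are surface receptors of resident and alternatively activated macrophages. Mrc1 had medians of 6.51 TPM in control rats (6.08 to 10.2), 6.76 TPM after i.p. ASC (3.67 to 9.75) and 7.47 TPM after i.v. ASC (2.27 to 9.65), and the CM rats had 4.54, 4.77, 9.34 and 9.56 TPM. Its log2 fold changes were -0.01 ± 0.27, -0.03 ± 0.27 and 0.02 ± 0.30 (SE). For both receptors, as for each of the 10 genes, CM rats 2 and 11 lay below CM rats 19 and 21. Cd163 was 0.735 to 1.01 TPM in control rats (median 0.873), 0.179 to 0.957 TPM after i.p. ASC (median 0.615) and 0.322 to 1.17 TPM after i.v. ASC (median 0.844), and 0.312, 0.46, 1.22 and 1.41 TPM in the CM rats. After i.p. ASC it had the lowest fold of the 10 genes, 0.770 (95% interval 0.460 to 1.29), with an adjusted p of 0.811 by edgeR. Its exact permutation p of 0.0866, two-sided and unadjusted, was the smallest computed for the 10 genes, where the smallest possible is 0.0022 with 6 against 6 rats and 0.0095 with 4 against 6.

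**Figure D2:**
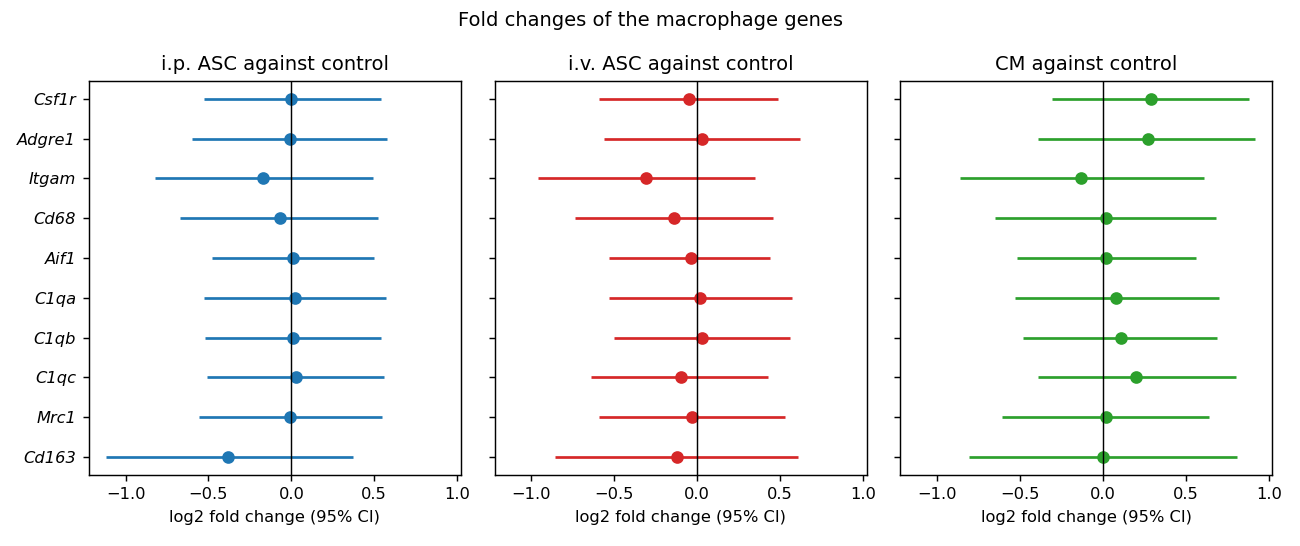
The log2 fold change of each macrophage gene against control rats (point) with its 95% confidence interval (line) from edgeR, in the 3 treated groups. Every interval includes 0, and the points lie between -0.38 (Cd163 after i.p. ASC) and 0.29 (Csf1r after CM).

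Over the 10 genes, the median log2 fold change was -0.00 after i.p. ASC (5 genes higher, 5 lower), -0.05 after i.v. ASC (3 higher, 7 lower) and 0.05 after CM (9 higher, 1 lower). Of all genes tested, 46.2%, 47.5% and 49.1% had a log2 fold change above 0, and the medians were -0.014, -0.011 and -0.003. On log2(TPM + 1) the medians of the 10 genes were -0.13, -0.25 and -0.04, with 0, 0 and 3 of 10 higher. Those of all genes were -0.0982, -0.1166 and -0.0662, with 2995, 3007 and 3936 of 12867 higher. The median of all genes was thus below 0 on that scale as well, and that of the 10 genes after i.v. ASC was further below. The direction of the 10 genes turned with covariates. With 1 surrogate variable in the fit 9, 10 and 10 of 10 were higher (medians 0.25, 0.23 and 0.34), against 6411, 6024 and 6210 of 12867 genes. By edgeR 3 of 10 then had an unadjusted p below 0.05 after CM, against 885 of 12867 genes. The size of that variable itself had r of 0.81 over rats with the mean of the 10 genes. With animal number as a covariate 9, 9 and 8 of 10 were higher (medians 0.14, 0.12 and 0.10), against 6420, 6280 and 6299 of 12867 genes. It also turned with single rats: the median after i.v. ASC was 0.12 without i.v. ASC rat 3 (9 of 10 higher) and -0.22 without rat 8 (0 of 10 higher), the median after i.p. ASC was -0.18 without rat 6, and the median after CM was -0.15 without rat 21 and 0.23 without rat 2. The narrowest 95% intervals of the fold were those of Aif1, from 0.719 to 1.41 after i.p. ASC, 0.692 to 1.36 after i.v. ASC and 0.696 to 1.48 after CM. The lowest and highest bounds of any of the 10 genes were 0.460 and 1.49, 0.513 and 1.54, and 0.550 and 1.90 in the same order.

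No difference between the treated groups passed the test either. By edgeR 0 of 10 genes passed the adjusted threshold between i.v. and i.p. ASC, between CM and i.p. ASC and between CM and i.v. ASC, against a background of 0% of all genes in each. In a test of any difference among the 4 groups 0 of 10 passed, against 0.0855% of all genes (11 of 12867), and the smallest adjusted p was 0.943 (Csf1r). Without adjustment 0 of 10 passed, against 4.11% of all genes. The group label accounted for 1.34% (Mrc1) to 8.86% (Cd163) of the variance of log2 CPM over rats, with a median of 4.65% compared with 13% for all genes tested.

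The rats themselves differed widely in these genes. The SD of log2 CPM (CPM, the count scaled to the total of the rat) over the 22 rats was 0.42 (Aif1) to 0.63 (Cd163), with a median of 0.48 compared with 0.23 for all genes tested. The mean of the 10 genes per rat, each centred on its own mean, ranged from -1.40 in i.v. ASC rat 3 to 0.69 in CM rat 21, a 4.26-fold span. That span rests on i.v. ASC rat 3, and the next lowest rat was i.p. ASC rat 5 at -0.65. Control rats covered -0.06 to 0.39, i.p. ASC rats -0.65 to 0.64, i.v. ASC rats -1.40 to 0.62 and CM rats -0.51 to 0.69.

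Low and high kidneys were thus both found among treated rats. The 6 lowest rats were i.v. ASC 3, i.p. ASC 5, i.v. ASC 9, CM 2, i.p. ASC 7 and CM 11, and the 3 highest were CM 21, i.p. ASC 6 and i.v. ASC 8. All but 1 of the 6 control rats lay between -0.06 and 0.11, and control rat 24 at 0.39 was the fourth highest of all. The summed level of the 10 genes was 654 to 916 TPM in control rats, compared with 423 to 1090, 269 to 1080 and 443 to 1200 TPM in the i.p. ASC, i.v. ASC and CM rats.

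**Figure D3:**
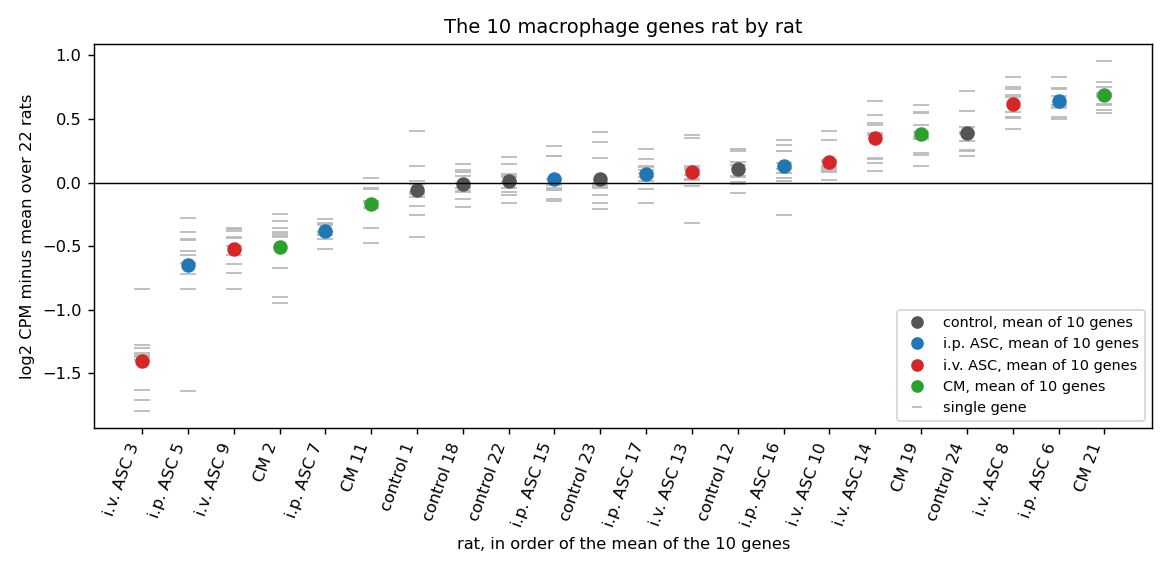
Log2 CPM of the 10 macrophage genes in each rat, centred on each gene's mean over 22 rats (grey dashes), and the mean of the 10 genes (coloured point by group), with rats in order of that mean. The mean runs from -1.40 in i.v. ASC rat 3 to 0.69 in CM rat 21, and the control rats occupy the middle and upper part, from -0.06 to 0.39.

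Within groups, the spread of all 10 genes in log2 CPM was smallest in the control rats. The SD of log2 CPM was smallest in control rats for 10 of 10 genes, which held for 46.7% of all genes tested. The 10 genes varied together (median r of 0.92, described below), so they are not 10 separate observations. In TPM the SD was larger in control rats than after i.p. ASC for Adgre1 (2.70 and 2.42) and Itgam (1.99 and 1.84), and smallest in control rats for the other genes. The median SD of the 10 genes was 0.20 in control rats, 0.45 after i.p. ASC, 0.73 after i.v. ASC and 0.49 after CM, whereas that of all genes was 0.17, 0.23, 0.23 and 0.22. Without i.v. ASC rat 3 the median SD of that group was 0.42, and control rats still had the smallest SD for 10 of 10 genes, against 43.8% of all genes. With this rat the SD was largest after i.v. ASC for 9 of 10 genes (33.2% of all genes), and without it for 1 of 10 (26.2%). Cd163 showed the widest contrast, with an SD of 0.09 in control rats and 0.75, 0.68 and 0.90 in the 3 treated groups. Of the 6 control rats 5 had animal numbers of 12 to 24, and among these numbers the mean of the 10 genes was -0.01 to 0.39 in control rats, 0.03 to 0.13 in 3 i.p. ASC rats, 0.08 to 0.35 in 2 i.v. ASC rats and 0.38 to 0.69 in 2 CM rats. The difference in spread between the groups, and the part of the animal number in it, were not tested.

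The 10 genes varied together from rat to rat. Over the 22 rats, Pearson's r of log2 CPM between the 45 pairs ranged from 0.71 to 0.98 with a median of 0.92, and Spearman's rho from 0.74 to 0.95 with a median of 0.88. All 45 pairs passed after Benjamini-Hochberg adjustment over the pairs, with a largest adjusted permutation p of 0.00031 for r and 0.00017 for rho, and 36 pairs were at 1e-05 before adjustment, the smallest p that 100000 permutations can give. These p-values are against no correlation, and the permutation test was not run over all gene pairs, so no background share stands beside this count. Of the 45 pairs 80.0% had r above 0.8, compared with 1.2% of all pairs of tested genes, whose median r was 0.00. All rats share the tissue, the sequencing platform and the scaling to total counts, so r over rats describes shared variation in kidney RNA and not a relation between genes within a cell.

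The relation was also seen without the differences between groups and without single rats. For deviations from the 4 group means the median r was 0.93. For each pair, the 2 rats farthest from the median of its first gene were left out, so these rats could differ between pairs. The median r was then 0.84 (0.69 to 0.95). Leaving out any 1 rat gave 0.85 to 0.93, the lowest without i.v. ASC rat 3. The median r was 0.96 within the i.v. ASC rats and 0.92 within the i.p. ASC rats, compared with 0.66 within the control rats (-0.55 to 0.94), whose values spanned less.

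The closest pair was C1qa and C1qb, with r of 0.98. C1qb and C1qc, C1qa and Aif1, and Adgre1 and Csf1r each had r of 0.97, and r was 0.96 for C1qa and C1qc, C1qb and Aif1, Csf1r and C1qc, and Cd68 and Itgam. C1qc followed the other 9 genes most tightly, with an SD of 0.11 in the log2 ratio to their mean. Itgam, which other myeloid cells also carry, had an SD of 0.23 and r of 0.86 to 0.90 with the C1q chains. Cd163 stood apart from the rest, with r of 0.71 to 0.80 to the other genes, an SD of 0.39 and the lowest counts, and the 36 pairs without it had r of 0.86 to 0.98. Whether its low count accounts for this was not tested.

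**Figure D4:**
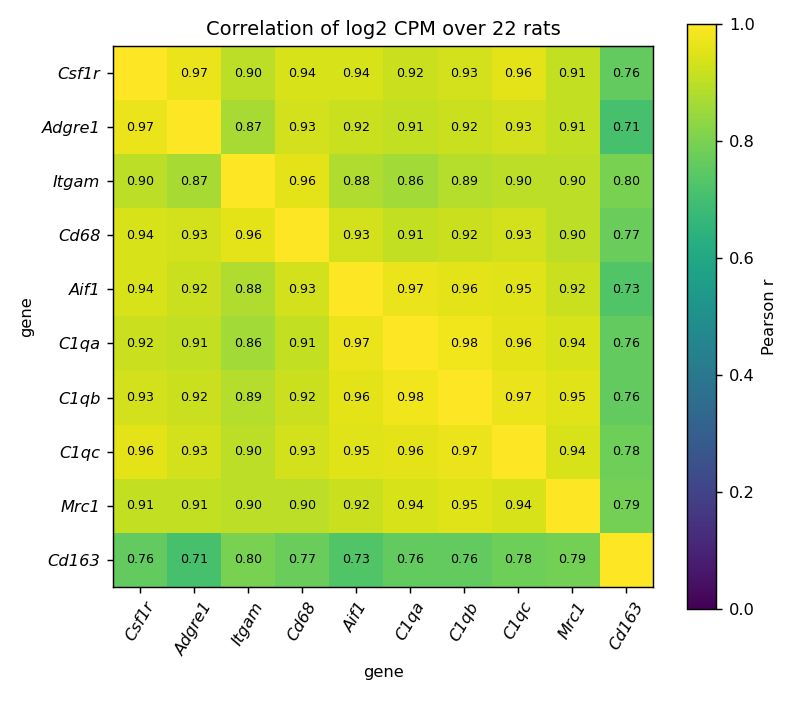
Pearson r of log2 CPM over the 22 rats for each pair of the 10 macrophage genes (colour and number in each cell). The values lie between 0.71 (Adgre1 with Cd163) and 0.98 (C1qa with C1qb), and no value in the row of Cd163 is above 0.80.

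Outside the list, the genes whose pattern over the 22 rats was most like the mean of the 10 were Mpeg1, Ptafr, Gng2, Vsir, Ifitm1, Fcrl2, Lyz2, Pld4, Myo1f and Il6r, with r of 0.98 to 0.96. Several of these are known from myeloid cells: Mpeg1 encodes the pore-forming perforin-2, Lyz2 lysozyme and Ptafr the receptor for platelet-activating factor. Of 12779 other genes with a symbol 5.34% had r above 0.8, and their median was 0.05. The single closest gene was Mpeg1 for Cd68 and for Itgam, Cd4 for Adgre1, Pld4 for Csf1r, Clec10a for Mrc1, Tyrobp for C1qa, Fcer1g for C1qb, Ncf4 for C1qc and Fcgr1a for Aif1, each with r of 0.96 to 0.98. For Cd163 it was Cdc42ep3, with r of 0.91.

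Other genes of the macrophage programme were not called either, and most followed the 10. Of 28 further macrophage genes listed 26 were tested, and 0 passed the adjusted threshold in any of the 3 comparisons, as did 0% of all genes. Of these 26, 11 were higher and 15 lower after i.p. ASC, 6 higher and 20 lower after i.v. ASC, and 16 higher and 10 lower after CM. Their mean had r of 0.99 with the mean of the 10 genes, and 20 of the 26 had r above 0.8. Lyz2, the most abundant, was 1390 ± 194 TPM in control rats, 1350 ± 539 after i.p. ASC and 1230 ± 584 after i.v. ASC (SD, n = 6 each), and 1400 ± 553 TPM after CM (SD, n = 4). Tyrobp and Fcer1g, adaptors that carry signals from activating receptors, were 247 ± 30.8 and 193 ± 27.1 TPM in control rats (SD, n = 6). The SD of each of these 3 genes was larger in every treated group than in control rats.

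The ligands of Csf1r did not behave alike over rats. Csf1 had r of 0.82 with the mean of the 10 genes (12.7 to 30.8 TPM), whereas Il34, which renal tubules make, had r of -0.18 and was nearly level, at 98.9 to 137 TPM. Csf2ra, a chain of the GM-CSF receptor, had r of 0.93, and Csf2rb, the shared chain of the receptors for GM-CSF, interleukin-3 and interleukin-5, had r of -0.66. Il3ra, the interleukin-3 receptor chain, was at 49.4 to 102 TPM with r of 0.37. Csf1 and Csf2rb were named after their values were seen. Of 7 genes of this axis tested 0 passed in any of the 3 comparisons, as did 0% of all genes. The same held for 6 monocyte attractants, such as Cx3cl1 (86.2 to 150 TPM), Ccl2 (38.3 to 132 TPM) and Ccl5 (7.16 to 48.7 TPM), whose mean had r of 0.91.

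Genes tied to the activation state and to complement were also not called against control rats, where 0% of all genes passed. Of the 9 classical activation genes tested, such as Cxcl10, Il1b and Cd86, and the 8 alternative activation genes, such as Tgfb1, Ccl17 and Il4r, 0 passed. The means of the 2 lists had r of 0.84 and 0.64 with the mean of the 10 genes. Single classical genes had r of 0.28 to 0.89. Single alternative genes differed more, from -0.59, the value of Il4r, to 0.96, that of Tgfb1. Retnla and Il10 were too low to be tested. Of 10 further complement genes 0 passed. Without adjustment, edgeR gave p below 0.05 for 1, 1 and 2 of these 10 after i.p. ASC, i.v. ASC and CM. It did so for 1 of the 9 classical genes, after i.p. ASC, and 1 of the 8 alternative genes, after i.v. ASC. Of all genes 3.89%, 8.81% and 6.6% had such a p after i.p. ASC, i.v. ASC and CM. C1r and C1s, the proteases that bind C1q, had r of 0.95 and 0.96 with the mean of the 10 genes, while C4a (r = -0.33) and Serping1 (r = 0.05), the inhibitor of these proteases, did not follow it. Serping1 was 257 ± 29.8 TPM in control rats, 296 ± 28.3 after i.p. ASC and 287 ± 34.0 after i.v. ASC (SD, n = 6 each), and 346 ± 43.1 TPM after CM (SD, n = 4). Its adjusted p-values by edgeR were 0.771, 0.523 and 0.563, and the unadjusted ones 0.00735, 0.0145 and 0.000325.

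Markers of other cells moved with the 10 genes in part. The list means of dendritic cells and T cells had r of 0.95 and 0.89 with the mean of the 10 genes, those of fibroblasts 0.84, neutrophils 0.72, B cells 0.67, lymphatic vessels 0.66, endothelium 0.63, podocytes 0.60 and injured tubules 0.57. Mast cells, with 1 of 6 markers tested, had r of 0.46, and red blood cells -0.14. The lists of tubular segments and of urothelium ran the other way, with r of -0.25 for collecting duct, -0.36 for proximal tubule, -0.52 for distal tubule and -0.52 for urothelium, the last with a Spearman rho of -0.01. Single genes differed, with r of up to 0.16 in the collecting duct, 0.48 in the proximal tubule and 0.40 in the distal tubule list. In the lists with r above 0, the lowest genes were at -0.34 for injured tubules, 0.01 for neutrophils, 0.03 for lymphatic vessels and 0.20 for fibroblasts. No gene of the dendritic, T cell, B cell, podocyte or endothelial list was below 0.33. The summed level of the proximal tubule markers was 639 to 2200 TPM in control rats and 750 to 2830, 828 to 2810 and 1350 to 2370 TPM after i.p. ASC, i.v. ASC and CM. Whether the makeup of the tissue differed was not tested. With the proximal tubule mean removed, the median r between the 10 genes was 0.91.

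**Figure D5:**
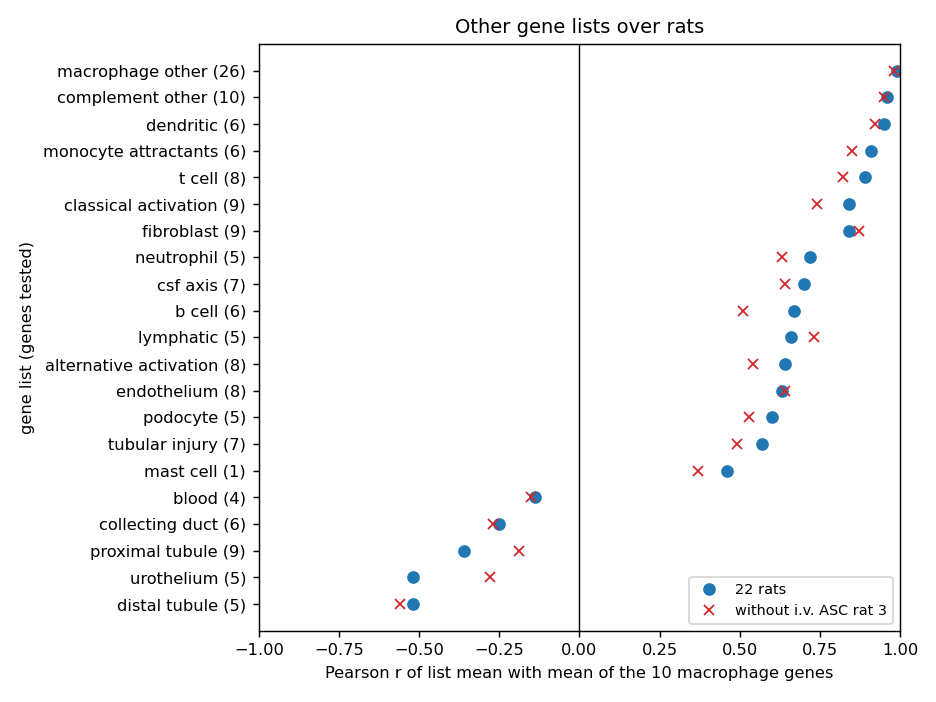
Pearson r over rats between the mean log2 CPM of each gene list (number of genes tested in parentheses) and the mean of the 10 macrophage genes, for all 22 rats (circles) and without i.v. ASC rat 3 (crosses). Immune, stromal, podocyte and injured tubule lists lie at 0.46 to 0.99. The proximal tubule, distal tubule, collecting duct, urothelial and blood lists lie at or below -0.14. Without that rat the urothelial value is -0.28 and the proximal tubule value -0.19.

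In i.v. ASC rat 3, the rat lowest for 9 of the 10 genes, the means of the dendritic, T cell, B cell, neutrophil, complement and injured tubule lists were the lowest of the 22 rats as well. The proximal tubule mean was the highest of the 22 in this rat, and the urothelial mean the second highest. The 5 urothelial genes tested, Upk1a, Upk1b, Upk2, Upk3a and Krt5, were the only listed genes called among the 4 groups. In that test 0 genes were called without i.v. ASC rat 9, with at least 10 counts in every rat or on either TPM scale. The filter of 10 counts removed Upk2, Upk3a and Krt5, whose lowest level was 0 TPM, so they could not be called under it. The summed level of the urothelial list was 2.02 to 16.7 TPM in control rats and 2.48 to 545 TPM after i.v. ASC. Of the 10 neutrophil markers 5 were tested, with means over all rats of 27.4 TPM for S100a9, 18.8 TPM for S100a8 and 7.28 TPM for Fcnb, and the summed level of the list was 18.2 to 154 TPM in control rats and 19.2 to 129, 10.5 to 123 and 27.0 to 103 TPM after i.p. ASC, i.v. ASC and CM. Over all rats the mean of the 10 genes had r of -0.29 with the total count, 0.48 with the number of genes above 0 and 0.51 with the animal number, and the part of these in the spread between rats was not tested.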

How the data were processed

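RNA from the left kidney of 22 rats was sequenced with the BGISEQ-500 protocol. The submitters' processing notes name Trim Galore 0.6.4, kallisto 0.4.6 and rn6, while the paper's methods name DESeq2. The authors deposited an estimated count per rat Entrez gene without normalization, of which 14.1% of values were not whole and were rounded here, and TPM, which the authors scaled by transcript length and total (sums of 959754 to 968550 per rat). No row lacked a gene. Of 17334 identifiers 17179 matched a symbol in RefSeq's GRCr8 table, used for names and neighbours only.

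Counts were filtered by filterByExpr, scaled by TMM and fitted with edgeR 4.0.16 (R 4.3.3) over all 4 groups, with Benjamini-Hochberg adjustment over 12867 genes and a threshold of 0.05. Exact permutation tests and correlations used log2 CPM (prior count 2) in scipy 1.17.1. Groups came from the labels. The animal numbers are unique to each rat, so nothing was paired. Replicates were separate rats, and no pair of rats of a group agreed within sampling noise. Alternatives were DESeq2 1.42.0, RLE size factors, other filters, limma 3.58.1 on log2(TPM + 1) and log2(TPM + 0.1), covariates (proximal tubule mean, 1 surrogate variable from sva 3.50.0 and, added after the data were seen, animal number) and leaving out each rat. The scripts were tested on simulated data.

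The 10 genes and the 21 other lists (176 of 181 genes listed in the files) were chosen with earlier results of these data known. The naming rule took the 10 genes, the 3 most abundant and any called genes of each list, the 10 genes most like the mean and the closest gene to each. Of the lists of other kidney and blood cells, only the neutrophil and urothelial genes so taken are named, and the rest are given as lists. C1s, Csf1, Csf2rb, Retnla, Il10 and the 10 most opposite genes were named outside the rule, after their values were seen. Near-identical paralogs could share reads. Depth gives counting error only. ABCB5+ groups were not analysed here.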

Additional observations from a re-analysis of the deposited data

Results flagged for a closer look

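C1qb in control rat 24 had a log2 CPM of 6.59, apart from the other 5 control rats at 6.18 to 6.32, and the gap was 0.66 of the group's range. It was the only 1 of 40 gene-by-group checks of the 10 genes to stand apart in this way (2.5%), compared with 4.85% of 51468 checks over all genes, and chance gives about 1 in 20. In the same rat the mean of the 10 genes was the highest of the control rats.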

How the results depend on the processing

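None of the 957 fold changes recomputed for the 10 genes under the alternatives passed the threshold. The sign differed from the one reported in 133, of which 76 left out 1 rat and 28 were on the 2 TPM scales. There the median of all genes was below 0 (-0.0982, -0.1166 and -0.0662 with a pseudocount of 1). No paired analysis was possible because the groups compared share no animal numbers. Limits are the number of rats, the spread between them and, for Cd163, counts of 8 to 58 per rat; with at least 10 counts in every rat Cd163 was not tested. The cause of the changes below was not tested.

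Signs that turned, as log2 fold changes, were these. On log2(TPM + 1) after i.p. ASC they were Csf1r -0.11, C1qa -0.13, C1qb -0.13, C1qc -0.11 and Aif1 -0.12, after i.v. ASC Adgre1 -0.16, C1qa -0.22 and C1qb -0.20, and after CM Cd68 -0.12, Cd163 -0.06, Mrc1 -0.08, C1qa -0.02, C1qb -0.00 and Aif1 -0.08. On log2(TPM + 0.1) the same genes had -0.11, -0.13, -0.14, -0.11 and -0.12, then -0.21, -0.23 and -0.21, and then -0.12, -0.23, -0.10, -0.02, -0.00 and -0.08. With 1 surrogate variable, whose size had r of 0.81 with the mean of the 10 genes, they were Cd68 0.21, Adgre1 0.24, Mrc1 0.25 and Itgam 0.15 after i.p. ASC, Cd68 0.15, Csf1r 0.20, Cd163 0.27, Mrc1 0.26, C1qc 0.17, Itgam 0.02 and Aif1 0.18 after i.v. ASC, and Itgam 0.20 after CM; the smallest adjusted p by edgeR was 0.489, for Csf1r after CM (0.55 ± 0.17, SE; unadjusted p = 0.00481). With animal number as a covariate they were Cd68 0.17, Adgre1 0.23, Mrc1 0.11 and Itgam 0.10 after i.p. ASC, Cd68 0.14, Csf1r 0.16, Cd163 0.06, Mrc1 0.11, C1qc 0.08 and Aif1 0.08 after i.v. ASC, and Cd163 -0.00 after CM. With the proximal tubule mean they were Adgre1 -0.03, C1qa -0.03 and C1qb -0.01 after i.v. ASC, and Mrc1 after i.p. ASC was 0.00 with DESeq2, with RLE size factors and with only 2 groups in the fit.

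Leaving out each rat gave, after i.p. ASC, ranges of -0.17 to 0.12 for Adgre1, -0.13 to 0.10 for Aif1, -0.20 to 0.11 for C1qa, -0.18 to 0.11 for C1qb, -0.13 to 0.14 for C1qc, -0.18 to 0.03 for Cd68, -0.12 to 0.09 for Csf1r and -0.19 to 0.11 for Mrc1. After i.v. ASC these were -0.08 to 0.22 for Adgre1, -0.25 to 0.12 for Aif1, -0.20 to 0.19 for C1qa, -0.16 to 0.20 for C1qb, -0.31 to 0.06 for C1qc, -0.27 to 0.02 for Cd163, -0.27 to 0.05 for Cd68, -0.20 to 0.12 for Csf1r and -0.15 to 0.14 for Mrc1. After CM they were -0.19 to 0.13 for Aif1, -0.12 to 0.21 for C1qa, -0.09 to 0.25 for C1qb, -0.37 to 0.25 for Cd163, -0.23 to 0.21 for Cd68, -0.37 to 0.09 for Itgam and -0.17 to 0.14 for Mrc1.

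Over all genes, edgeR's 0 calls after i.v. ASC were 22 with DESeq2 and 0 to 14 without 1 rat (11 without i.v. ASC rat 8, 14 without rat 14). The 0 after CM were 5 with DESeq2, 1 with only 2 groups in the fit and 0 to 2 without 1 rat (2 without i.v. ASC rat 9). The 11 among the 4 groups were 37 with DESeq2, 4 with the surrogate variable, 0 with limma, at least 10 counts or animal number, and 0 to 18 without 1 rat (0, 5, 5 and 18 without i.v. ASC rats 9, 3, 13 and 14). The median r between the 10 genes was 0.84 without the 2 rats farthest in the first gene of each pair, and 0.85 to 0.93 without 1 rat. It moved by less than the spread between pairs under the other settings.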

Other observations

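The genes whose pattern ran most against the mean of the 10 macrophage genes over the 22 rats, named after their values were seen, were Farp2, Marchf8, Slc2a12, Hspa9, Dnaja3, Mrrf, Cd99l2, Etfdh, Pdha1 and Pcca, with r of -0.90 to -0.86. Of the 12779 genes compared 165 had r below -0.8, and 682 had r above 0.8.

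Among animal numbers 1 to 11, the mean of the 10 genes was -1.40 to 0.62 in 4 i.v. ASC rats, -0.65 to 0.64 in 3 i.p. ASC rats, -0.51 and -0.17 in 2 CM rats and -0.06 in 1 control rat. Among numbers 12 to 24 it was 0.08 to 0.35 in 2 i.v. ASC rats, 0.03 to 0.13 in 3 i.p. ASC rats, 0.38 and 0.69 in 2 CM rats and -0.01 to 0.39 in 5 control rats. The labels do not say what the animal number marks, and no test was run within the lower or the higher numbers.

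Among the lists of other cells, chosen here after their values were seen, podocyte genes had a log2 fold change below 0 for 5 of 5 genes in each treated group, and endothelial genes for 8, 8 and 7 of 8 after i.p. ASC, i.v. ASC and CM. Of all genes, 46.2%, 47.5% and 49.1% were above 0. By edgeR 0 genes of both lists and 0% of all genes passed the adjusted threshold. Without adjustment 2 podocyte genes after i.v. ASC had p below 0.05, against 8.81% of all genes, with 0 in the other comparisons.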
